A study of Mus musculus with 6 samples.

Results

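The proteins of the cytosolic ribosome were examined at the level of their mRNAs in undifferentiated mouse embryonic stem cells (mESCs) with and without the dioxygenase ALKBH1. Members were taken by symbol from a table of 33142 microarray probe sets: every gene with an Rpl or Rps symbol followed by a number (with an optional a, x or l), and Rplp0, Rplp1, Rplp2 and Rpsa. The rule found 162 probe sets of 56 genes, among 15357 genes named in the table. Each gene is given by its brightest probe set, which left 31 genes of the large subunit and 25 of the small subunit. Of the 4 symbols named singly in the rule, only Rplp1 occurs in the table, because the annotation is old; Rplp0, Rplp2 and Rpsa stand there under other symbols or none and are described with the genes outside the rule.

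The samples were 3 microarrays of wild type (WT) and 3 of Alkbh1-/- mESCs, both on the C57BL/6 background, at passage 8 and day 0, that is, before differentiation was induced. No treatment was applied, and all cells grew in Knockout DMEM with leukemia inhibitory factor, the cytokine that keeps mESCs undifferentiated. Both lines were derived from littermate blastocysts of heterozygous parents and kept on irradiated mouse embryonic fibroblasts, so RNA of these feeder cells can be in every sample. The labels do not say whether the 3 arrays of a genotype came from separate cultures. The p-values then rest on the spread between these arrays, which may be technical, and on a prior variance shared by all probe sets. Each genotype appears to be a single derived line, so genotype and line cannot be told apart. Only the comparison of the genotypes was analysed here, with no values of single arrays; group means were computed from the difference and the overall mean of each probe set.

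The ribosome is the machine that reads mRNA into protein. Its small subunit binds the mRNA and checks codons, its large subunit joins amino acids, and each subunit is a scaffold of ribosomal RNA clad with proteins that are mostly present in a single copy per ribosome. Proliferating cells such as mESCs spend a large part of their transcription on this machinery, and the protein genes are known for being expressed together. Their mRNAs begin with a run of pyrimidines at the cap, the 5′ terminal oligopyrimidine (TOP) motif, through which the kinase mTOR controls their translation. Most members have many processed pseudogenes, and a few have a second, expressed copy elsewhere in the genome.

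The sequence around the RefSeq start (assembly GRCm38.p6) is shown for the members and relatives on which the results turn, as 30 bases with 15 on each side of the start used in the RefSeq promoter table, and the longest unbroken run of C or T is in capitals. Rpl36a, Rpl10, Rps4x and Rpl39 are the X-linked genes of the group, Rpl39l and Rpl36al are autosomal relatives of Rpl39 and Rpl36a, Rps6 is a classical TOP mRNA, and Rpl13a had the lowest difference of all members.
Rpl36a: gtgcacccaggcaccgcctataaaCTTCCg
Rpl10: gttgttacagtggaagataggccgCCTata
Rps4x: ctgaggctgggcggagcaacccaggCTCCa
Rpl39: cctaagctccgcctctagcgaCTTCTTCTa
Rpl39l: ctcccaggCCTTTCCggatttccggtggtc
Rpl36al: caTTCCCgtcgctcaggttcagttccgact
Rps6: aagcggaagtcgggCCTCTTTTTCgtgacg
Rpl13a: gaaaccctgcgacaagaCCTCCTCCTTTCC
The windows lie at chrX:134585639-134585668 on the plus strand for Rpl36a, chrX:74270801-74270830 on the plus strand for Rpl10, chrX:102189377-102189406 on the minus strand for Rps4x, chrX:37085208-37085237 on the minus strand for Rpl39, chr16:10170213-10170242 on the plus strand for Rpl39l, chr12:69184053-69184082 on the minus strand for Rpl36al, chr4:86857353-86857382 on the minus strand for Rps6 and chr7:45128731-45128760 on the minus strand for Rpl13a. The full RefSeq span of Rpl39l begins further upstream, at position 10170197, outside its window.

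The run was 10 bases long in Rps6 and 13 in Rpl13a, where it reached the end of the window and may continue. It was 3 to 5 bases in Rpl36a, Rpl10 and Rps4x, 8 in Rpl39, 7 in Rpl39l and 5 in Rpl36al. Searched on the transcribed strand, a run of at least 8 bases, each C or T, was present in 15 of the 42 members with an entry in the promoter table (35.7%) and in 3760 of its 27025 genes (13.9%). The median of the longest run was 6 bases in the members and 5 over all genes. These are descriptions of the letters near annotated starts, which can lie some bases from the true cap, and a missing run says nothing about how an mRNA is controlled.

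The labels were checked with the targeted gene. Alkbh1 had computed means of 9.57 in WT and 4.69 in Alkbh1-/- mESCs on the log2 scale at probe set 1434660_at (log2 difference −4.89, adjusted p = 2.99e-05, limma's moderated test). The lines also differed in their sex chromosomes. The Y-linked genes Eif2s3y, Ddx3y, Kdm5d and Uty were lower in Alkbh1-/- mESCs by log2 differences of −5.65, −4.87, −4.04 and −2.69, while Xist, the RNA that coats an inactive X chromosome, averaged 5.35 in WT and 5.36 in Alkbh1-/- mESCs. The labels give no sex for either line. All 10 embryonic stem cell markers were well measured, with mean log2 values from 10.05 to 14.49, and 5 of them were higher in Alkbh1-/- mESCs at an adjusted p under 0.05, from Tdgf1 at 0.32 to Nanog at 1.10. Utf1 fell by 0.49. Of 20 fibroblast markers, 19 had lower means in Alkbh1-/- mESCs, with a median log2 difference of −0.73. At an adjusted p under 0.05 in limma's moderated test 0 were called, with 11 lower at an unadjusted p under 0.05. Col1a1, Col3a1 and Mmp2 were called lower with a prior variance that follows mean intensity. Over all genes, 7.69% were higher and 8.37% lower at that adjusted p in limma's moderated test. The lower share was 17.7% without adjustment and 10.7% with the prior that follows intensity. The summed linear level of the fibroblast markers was 28958 in WT and 19314 in Alkbh1-/- mESCs. Ribosomal protein mRNAs are present in stem cells and fibroblasts alike, and the part of the feeder RNA in the values below was not tested. In such bulk samples, fewer cells of a type and less RNA per cell cannot be told apart.

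Ribosomal protein mRNAs were among the brightest signals on the arrays. The mean log2 intensity over the 6 arrays was at least 13 for 53 of the 56 members, a level reached by 324 of the 33142 probe sets (0.978%). Over all probe sets the median was 6.31, in a range from 3.22 to 14.67. The large subunit members had a median of 13.97, and the small subunit members a median of 14.07. The exceptions below 13 were Rpl24 at 7.21, Rpl5 at 8.08 and Rps25 at 10.19. Probe sets of these genes under another symbol or none were not searched for, so brighter ones may exist. The brightness of a probe set also depends on its oligonucleotides, so these values do not rank the transcripts by abundance. Near the top of the range an array can compress differences, which bears on every small difference given below.

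The first comparison asked whether the ribosomal protein mRNAs differed between Alkbh1-/- and WT mESCs. They did so very little. The median log2 difference, Alkbh1-/- minus WT, was 0.0072 over the 31 large subunit genes and 0.0098 over the 25 small subunit genes, beside −0.026 over all 15357 genes and −0.0067 over all probe sets. In the large subunit 17 values lay above 0 and 14 below, and in the small subunit 17 above and 8 below. Of the 53 autosomal members, 52 lay within 0.1 of 0 on the log2 scale. The arrays were normalized together to a common distribution, so a change shared by the whole transcriptome would not appear in these values.

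At an adjusted p under 0.05 in limma's moderated test, 2 of the 31 large subunit genes were higher in Alkbh1-/- mESCs and 0 were lower. Over all genes, 7.69% were higher and 8.37% lower by the same call, so the count of higher members was close to that background. Those 2 genes, Rpl36a and Rpl10, are X-linked. In the small subunit 0 of 25 genes were higher and 0 lower; a prior variance that follows mean intensity gave 1 higher gene, Rps4x, and Student's test gave Rps4x and Rps27l. Without adjustment, 1 small subunit gene, the X-linked Rps4x, had a p under 0.05 and was higher, and 0 were lower, beside 13.8% higher and 17.7% lower over all genes. For the large subunit, the unadjusted counts were 2 and 0. With a linear fold over 1.5 (a log2 difference of 0.585) as a further threshold, 0 members of either subunit were called in either direction, beside 4.45% of all genes higher and 4.07% lower.

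Among the 53 autosomal members, 0 were called in either direction by limma's moderated test, 0 had an unadjusted p under 0.05, and 0 were called with a prior variance that follows mean intensity. Student's test called 1 of them higher, Rps27l. The lowest adjusted p of the 53 was 0.486, that of Rpl13a in limma's moderated test. Of 180 autosomal genes with a mean log2 value of at least 13, members included, that test called 3 higher and 2 lower. Over all genes, the shares were 7.69% higher and 8.37% lower in that test. They were 13.8% and 17.7% without adjustment, 9.46% and 10.7% with the trended prior, and 5.20% and 5.12% in Student's test. What the member counts can show depends on the standard errors. These are moderated, that is, drawn toward a prior variance shared by all probe sets. They and the intervals therefore do not measure the spread between the arrays alone. The prior sets a floor near 0.0686, the standard error of Rps16, whose interval ran from −0.19 to 0.13. However alike the arrays were, a difference within 0.1 of 0 could not reach an unadjusted p under 0.05 in limma's moderated test. For the 52 autosomal members in that range, the counts of 0 in this test follow from the prior and the size of the differences. The median standard error of an autosomal member was 0.070 on the log2 scale, and the median distance from the difference to the end of its 95% confidence interval was 0.165. For 48 of the 53 the whole interval lay within 0.25 of 0, and for 52 it lay within 0.585, the log2 value of a 1.5-fold difference. The exception was Rpl24, with an interval from −0.25 to 0.64.

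**Figure D1:**
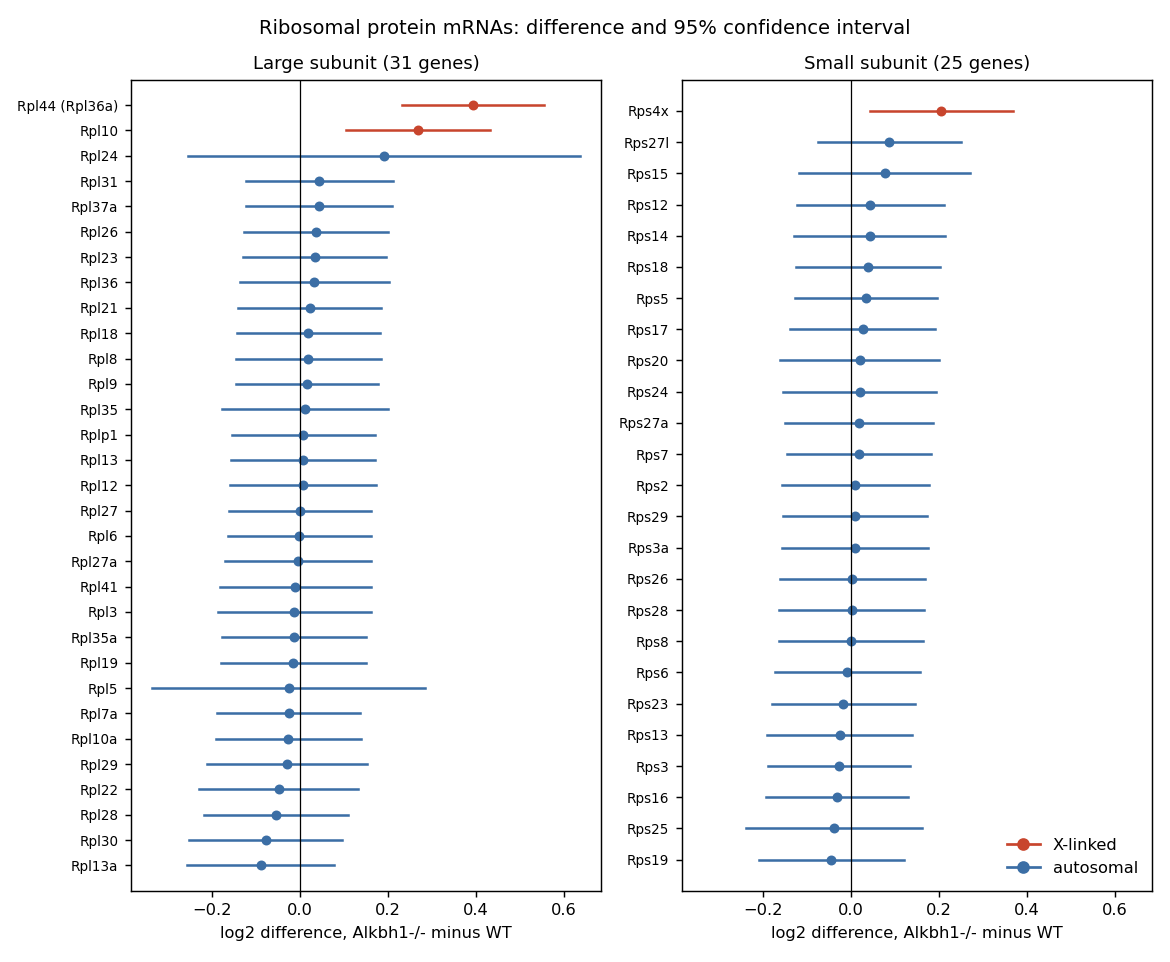
Log2 difference between Alkbh1-/- and WT mESCs (horizontal axis) for the 31 large subunit and 25 small subunit genes at the brightest probe set of each; points are the differences, lines the 95% confidence intervals, and X-linked genes are red. The intervals of the 53 autosomal members all include 0, and those of the 3 X-linked members do not.

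Within the large subunit, the autosomal genes with the highest differences were Rpl24 at 0.19, Rpl31 at 0.044 and Rpl37a at 0.043. The probe set called Rpl24 carries the gene identifier of the translation initiation factor Eif4g1, so its value may not belong to a ribosomal protein at all. At the other end stood Rpl13a, which can leave the ribosome to repress inflammatory mRNAs, with computed means of 14.19 in WT and 14.10 in Alkbh1-/- mESCs and a difference of −0.090. Rpl30, Rpl28, Rpl22 and Rpl29 followed at −0.078, −0.054, −0.048 and −0.030. Each of these differences was smaller than the half-width of its own interval.

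Genes of known roles lay in the same narrow range. Rpl5, which carries the 5S RNA into the large subunit and binds the p53 regulator Mdm2 when assembly fails, had a log2 difference of −0.025 (95% confidence interval −0.34 to 0.29) at a dimmer probe set. Rplp1, a protein of the stalk that recruits translation factors, had means of 14.306 in WT and 14.314 in Alkbh1-/- mESCs, a difference of 0.0077. Rpl3, which reaches towards the centre where peptide bonds form, was at −0.013. For these 3 genes the interval included 0.

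In the small subunit, the highest autosomal value was that of Rps27l, a p53-inducible relative of Rps27, at 0.087 (95% confidence interval −0.076 to 0.25, adjusted p = 0.490, limma's moderated test). Rps15, Rps12 and Rps14 followed at 0.076, 0.044 and 0.042. The brightest probe set called Rps15 carries the identifier of Rps15a, and the brightest set of Rps15 itself was at −0.056. Lowest were Rps19, mutated in Diamond-Blackfan anemia, at −0.045, and Rps25, Rps16, Rps3 and Rps13 at −0.039, −0.032, −0.027 and −0.026. Rps6, the substrate of the S6 kinases downstream of mTOR, had means of 14.420 in WT and 14.411 in Alkbh1-/- mESCs. Rps27a, made as a fusion to ubiquitin, was at 0.019.

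Other bright autosomal genes also centred near 0 but spread more widely. Of the autosomal members, 50 had a mean log2 value of at least 13, and the 10th and 90th percentiles of their differences were −0.033 and 0.042. The 107 other autosomal genes in that range had a median difference of 0.0061, with percentiles of −0.12 and 0.11. Among those 107, the heat shock gene Hspb1, the respiratory chain gene Cox5a and the stem cell marker Tdgf1 were called higher in limma's moderated test, by 0.37, 0.33 and 0.32, and the metallothionein genes Mt1 and Mt2 fell by 0.69 and 0.43, so a difference of this size could be called in that range. The members were also the brighter of the 2 groups, with a median mean value of 14.02 against 13.41.

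**Figure D2:**
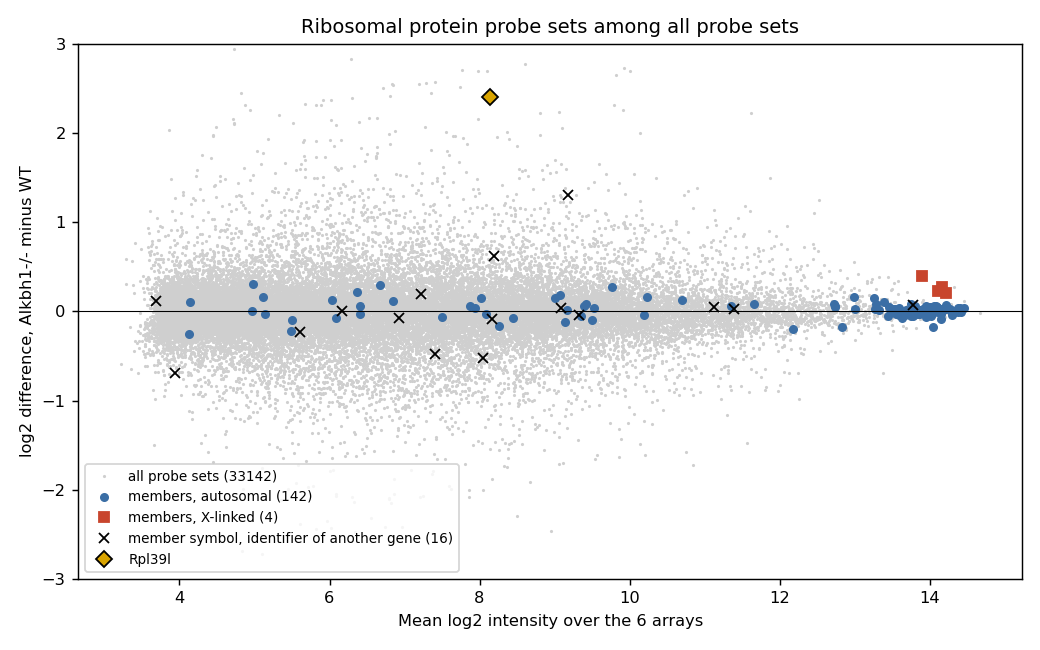
Log2 difference against the mean log2 intensity over the 6 arrays for all probe sets (gray; 32 lie beyond the plotted range of 3 in either direction), with the 142 autosomal and 4 X-linked probe sets of the members in color and the 16 whose identifier names another gene as crosses. The members' probe sets crowd at the bright end near 0, the X-linked sets lie just above them, and Rpl39l, which the rule did not select, stands at 2.41.

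The X-linked members were the exception in both subunits. Rpl36a, listed under its older symbol Rpl44 (1416807_at), sits by the site where spent tRNA leaves the large subunit. It averaged 13.71 in WT and 14.10 in Alkbh1-/- mESCs, a log2 difference of 0.39 with a 95% confidence interval from 0.23 to 0.55 and a fold of 1.31 (adjusted p = 0.0108, limma's moderated test). Rpl10 (1448157_s_at), which joins the large subunit late in its assembly, had means of 14.04 and 14.31, a difference of 0.27 with an interval from 0.10 to 0.43 (adjusted p = 0.0476, same test). A further probe set of Rpl10, 1415942_at, was at 0.23 with an adjusted p of 0.0785 in limma's moderated test. Over all settings, the adjusted p of Rpl10 ran from 0.000267 to 0.0785, and that of Rpl36a from 3.21e-05 to 0.0108.

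Rps4x (1416276_a_at), a protein of the small subunit, had means of 14.11 in WT and 14.32 in Alkbh1-/- mESCs. Its log2 difference of 0.21 (95% confidence interval 0.044 to 0.37) had an unadjusted p of 0.0198 and an adjusted p of 0.103 in limma's moderated test. Its call depended on how the variance was estimated. With a prior variance that follows mean intensity, the adjusted p from limma was 0.000746, and in Student's test on the recovered variances it was 0.00754. By these calls 9.46% and 5.20% of all genes were higher, and 10.7% and 5.12% lower. Student's test also called Rps27l, with an adjusted p of 0.0337, while its adjusted p ran from 0.0337 to 0.490 over all settings.

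The values of Rpl36a, Rpl10 and Rps4x were the 3 highest of the 56. The same direction held for most of the X chromosome. Of 524 X-linked genes, 276 were higher in Alkbh1-/- mESCs at an adjusted p under 0.05 (52.7%) and 17 were lower (3.24%), and their median log2 difference was 0.47, beside −0.032 for 14823 autosomal genes. Members with an X-linked address were therefore read against the X chromosome. The X-linked difference depended on brightness. Its median was 0.32 for 117 genes with a mean log2 value from 5 to 7, 0.69 for 133 genes from 7 to 9, 0.73 for 103 from 9 to 11, 0.54 for 48 from 11 to 13 and 0.22 for 11 genes at 13 or more. Autosomal medians in the same bins ran from −0.051 to 0.0051.

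Of the 11 brightest X-linked genes, 4 encode ribosomal proteins. The other 7 had a median of 0.17, and 2 of them were called higher: the glycolytic enzyme gene Pgk1 at 0.39 and the mitochondrial ADP/ATP carrier gene Slc25a5, listed as Ant2, at 0.34. The values of those 7 ran from −0.24 to 0.390. Rpl10, Rpl39 and Rps4x lay inside that range, and Rpl36a, at 0.393, lay at its upper end. The lowest of the 7 is a probe set listed as Enc1 that carries the identifier of the X-linked Mtm1. Its place on the X chromosome is therefore uncertain, and the medians of the 7 and of all 11 include it. Whether the lower values at the bright end came from the range of the arrays was not tested, and X-linked dosage, line and genotype cannot be told apart in this design.

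**Figure D3:**
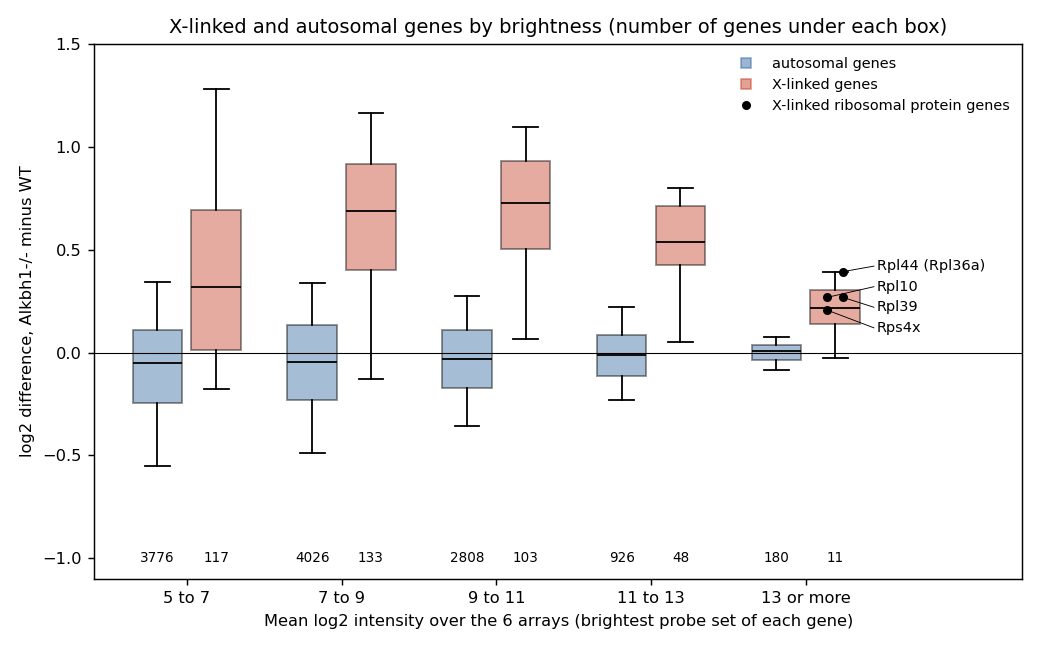
Log2 difference of X-linked (red) and autosomal (blue) genes in 5 bins of mean log2 intensity; boxes span the quartiles with a line at the median, whiskers reach the 10th and 90th percentiles, and black points mark the 4 X-linked ribosomal protein genes. X-linked medians exceed autosomal medians in each bin and are lowest at 13 or more, where the ribosomal protein genes lie.

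Further probe sets of the same genes were then counted together with the brightest ones, so these counts are not a separate check. Leaving out sets whose identifier names another gene, 35 members had several probe sets. The differences of a gene spanned less than 0.1 on the log2 scale in 19 of them, and had the same sign in 15. Over all 146 such probe sets, 2 were called higher and 0 lower, beside 6.63% higher and 6.32% lower over all 33142. The 2 were the brightest sets of Rpl36a and Rpl10, already given above. At an unadjusted p under 0.05 there were 7 of the 146, 4 higher and 3 lower, beside 26.9% of all probe sets in either direction. The lower sets were 2 of Rpl13a and 1 of Rps18, with adjusted p-values of 0.171, 0.185 and 0.162 in limma's moderated test. With a trended prior variance 5 of the 146 were called higher and 2 lower, beside 8.00% and 7.80% over all probe sets, and in Student's test 5 and 1, beside 3.93% and 3.56%.

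The 5 probe sets of Rpl13a lay below 0 and the 3 of Rps27l above it. For Rpl13a, these 5 probe sets did not carry the identifier of another gene, although 1435873_a_at, at −0.067, could not be checked by identifier. From the brightest to the dimmest, their differences were −0.090, −0.17, −0.067, −0.17 and −0.20. The prior variance with a trend called 2 of them lower, 1417608_a_at (adjusted p = 0.00591) and 1455001_x_at (adjusted p = 0.0196, both limma), and Student's test called the first (adjusted p = 0.0468). Under limma's moderated test 0 of the 5 passed, and the lowest of these values corresponds to a fold of 0.872. The sets of Rps27l were at 0.087, 0.15 and 0.17, again from the brightest to the dimmest. The trended prior variance called the second of them higher, 1450925_a_at (adjusted p = 0.0395, limma), Student's test called the brightest, and limma's moderated test called 0 of the 3. Probe sets of a gene share the same RNA and are not replicates.

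Rps6 had 11 probe sets, whose differences ran from −0.25 to 0.12. Its 4 sets with means above 14 lay between −0.0083 and 0.074, and the extreme of −0.25 came from a set with a mean of 4.13. For Rpl30 the range was −0.17 to 0.30, with the highest value again at a dim set. Autosomal sets with a mean under 13 had a median standard error of 0.126, against 0.070 for those at 13 or more. None of the sets of Rps6 and Rpl30 had an unadjusted p under 0.05.

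Many ribosomal protein genes stand in the table under older symbols or none. Those that were not already members were found through their gene identifiers or accessions. This added 20 genes of ribosomal proteins, with a median log2 difference of −0.0021; Rps15a is left out because its probe set is the one already given under Rps15. Among the 19 autosomal ones the values lay between −0.051 and 0.041. Limma's moderated test, with or without a trend, and Student's test called 0 of them, and 0 had an unadjusted p under 0.05. Over all genes, 7.69% were higher and 8.37% lower in limma's moderated test, and 13.8% and 17.7% without adjustment. The shares were 9.46% and 10.7% with a trend and 5.20% and 5.12% in Student's test. As for the members, differences this small could not reach an unadjusted p under 0.05 in limma's moderated test. Rplp0 and Rplp2, the other proteins of the stalk, were at 0.0010 and −0.0052. Rpsa, which also serves as a laminin receptor, was at −0.023, and Rpl11, the partner of Rpl5, at 0.0058. The fusion protein Fau and the scaffold Rack1 were at −0.064 and −0.0066.

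The remaining gene of the 20 is the X-linked Rpl39, a small protein that lines the tunnel through which the new chain leaves. At 1450840_a_at it averaged 14.20 in WT and 14.46 in Alkbh1-/- mESCs, a log2 difference of 0.27 with an interval from 0.062 to 0.47 (adjusted p = 0.0967, limma's moderated test). A dimmer set of the gene, 1423032_at, was at 0.17 with an interval that included 0. The prior variance with a trend gave an adjusted p of 0.0113 for the brighter set in limma, and Student's test one of 0.128. Rpl39 therefore had the direction of the other X-linked members without passing the main threshold.

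Paralogs of ribosomal protein genes were looked at in the same way. Rpl39l, an autosomal relative of Rpl39 on chromosome 16 that is known mainly from the male germ line, had computed means of 6.93 in WT and 9.34 in Alkbh1-/- mESCs at its probe set 1423327_at. The log2 difference was 2.41 with an interval from 2.10 to 2.72, a fold of 5.31 (adjusted p = 0.000164, limma's moderated test). On the linear scale this is a geometric mean intensity of 122 in WT cells against 648 in Alkbh1-/- cells. Its adjusted p was 1.27e-05 with the trended prior variance and 0.0110 in Student's test. Rpl39l was the only ribosomal protein gene or paralog found here with a linear fold over 1.5, was named after its value was seen, and rests on a single probe set.

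The other paralogs were closer to 0. Rpl3l, a copy of Rpl3 known from muscle, was at 0.46 with means of 4.15 in WT and 4.60 in Alkbh1-/- mESCs, among the dimmest values of the array (interval 0.17 to 0.75, adjusted p = 0.0526, limma's moderated test). Rpl7l1 was at 0.13, Rps4l at 0.046 and Rpl22l1 at 0.025. Rpl36al, the autosomal relative of Rpl36a, was at −0.034 with an interval from −0.20 to 0.14. None of these 5 was called, and probe sets of relatives and pseudogenes can share transcripts.

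The rest of the translation machinery was examined through lists of genes with related roles. The counts of each list are to be read beside the shares of all genes. These were 7.69% higher and 8.37% lower in limma's moderated test, and 9.46% and 10.7% with a trended prior variance. In Student's test they were 5.20% and 5.12%, and at an unadjusted p under 0.05 they were 13.8% and 17.7%. Other mRNAs known to carry a TOP motif, 23 in all, had a median difference of −0.033, and 0 were called in either direction by limma's moderated test, with 3 higher and 3 lower at an unadjusted p under 0.05. With a trended prior variance 3 were called higher, among them the small nucleolar RNA host gene Gas5 at 0.21, and 4 lower, among them Eif3f at −0.32. Student's test called Gas5 higher and Eif4b, at −0.21, lower. The elongation factor genes Eef1a1 and Eef2 were at −0.016 and 0.12, and the poly(A)-binding protein gene Pabpc1 at −0.019. The lowest of the list was Lgals1 at −0.83 (adjusted p = 0.0559, limma's moderated test), a galectin gene that fibroblasts also express.

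Of 37 genes of initiation factors, 3 were higher and 1 lower in limma's moderated test, and the median was −0.050. Over all genes 7.69% were higher and 8.37% lower by that call. A trended prior variance called 5 higher and 4 lower, and at an unadjusted p under 0.05 the counts were also 5 and 4. Eif4g3, a scaffold of the cap-binding complex, fell by 1.32 on the log2 scale, from a mean of 9.18 in WT to 7.86 in Alkbh1-/- mESCs (adjusted p = 0.000367, limma's moderated test). Eif2b5, a subunit of the exchange factor that recharges eIF2, was higher by 0.75 (adjusted p = 0.00130, same test). The other called genes, Eif2s3x and Eif1ax, are X-linked and were at 0.47 and 0.37. Among 14 genes of elongation and release factors, with a median of −0.031, the X-linked Gspt2 was higher by 0.95 and the others were not called by the same test; with a trended prior variance 1 gene was also lower.

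Of 90 ribosome biogenesis genes, 6 were higher and 2 lower in limma's moderated test, and the median was −0.064. The counts were 8 and 9 with a trended prior variance, and 9 and 12 at an unadjusted p under 0.05, to be read beside the shares of all genes given above for these calls. All 4 X-linked genes of the list were higher: Las1l, part of the nuclease that cuts the spacer of the precursor RNA, at 0.64, Utp14a at 0.59, Gnl3l at 0.54 and the dyskerin gene Dkc1 at 0.52. Among the 86 autosomal genes the median was −0.068. Rrp1 and Nol9 fell by 0.46 and 0.38, and Utp6 and Senp3, at 0.35 and 0.36, were higher. Student's test called 6 of the 90 higher and 0 lower, so neither Rrp1 nor Nol9 passed it. Over all genes it called 5.20% higher and 5.12% lower. Of 20 genes of RNA polymerase I transcription, with a median of −0.015, the terminator gene Ttf1 was higher by 0.33.

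Dedicated chaperones carry single ribosomal proteins from the cytoplasm to the nucleus. Of 10 such genes, with a median of −0.057, the X-linked Tsr2 was higher by 0.81 (adjusted p = 0.00328, limma's moderated test). Rps26, the protein that Tsr2 carries, had a difference of 0.0032 at its mRNA. Of 22 genes of mTOR and of regulators of TOP mRNAs, with a median of −0.083, Mtor itself was higher by 0.46 and Akt1s1, an inhibitor of the mTOR complex, fell by 0.37. With a trended prior variance, 1 gene was higher and 1 lower in the RNA polymerase I list, 1 and 2 among the chaperones, and 1 and 2 in the mTOR list. Over these lists 13 genes were called higher, among them all 8 X-linked ones; over all genes 1181 were called higher, 276 of them X-linked. Protein amounts, translation and phosphorylation were not measured.

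**Figure D4:**
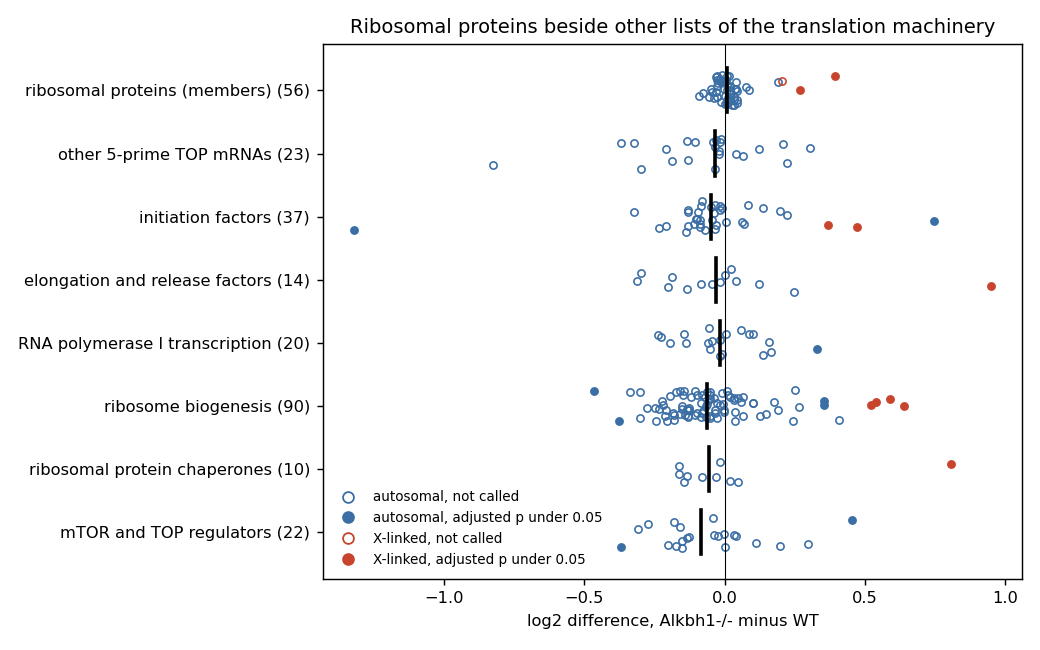
Log2 difference between Alkbh1-/- and WT mESCs for the 56 members and 7 lists of the translation machinery; each circle is a gene (filled, adjusted p under 0.05; red, X-linked), the number of genes stands beside each name, and the black bar is the median. Medians lie between −0.083 and 0.0080, and most members lie closer to 0 than the genes of the other lists.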

How the data were processed

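RNA from 3 WT and 3 Alkbh1-/- mESC samples was hybridized to Affymetrix arrays of the mouse genome. The authors normalized the arrays with the robust microarray analysis algorithm (its version is not given in the sources used here) and deposited 2 tables of their comparison. In the larger, the deposited log2 values are the difference between the genotypes and the overall mean of each probe set. A deposited score gives the moderated statistic, with a sign opposite to the difference in each of 33142 probe sets, and each probe set has a deposited p-value and adjusted p-value. A class comparison of 4326 entries gives the geometric mean intensity of each genotype as deposited, and the fold. It set the direction, Alkbh1-/- over WT, and was joined by value (within 0.0001), since 8 of the 4261 matched entries carried the same identifier. These columns hold the submitters' own comparison and were used in the absence of single-array values among the files analysed here.

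The design had been a limma fit to single arrays. In its place, standard errors were computed as the difference over the moderated statistic, with 7.14 total degrees of freedom of which 4 are residual, and 95% confidence intervals from these. The prior variance was recovered as 0.0160 and allowed a prior variance with a trend and Student's test. Benjamini-Hochberg adjustment over all 33142 probe sets returned the deposited adjusted p-values to within 4.08e-06. Recovery of the prior degrees of freedom, prior variance and standard errors was checked on simulated data whose variance did not follow intensity. The p-values with a trended prior variance and in Student's test were not part of that check. Genes with an adjusted p under 0.05 were called, and an alternative added a linear fold over 1.5. The number of arrays limits the precision.

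Probe sets were named through RefSeq genes of GRCm38.p6 by gene identifier, accession or symbol, and 28205 were named. Of 162 member probe sets, 111 could be checked by identifier, and 16 of these carried that of another gene. Genes named in the text are the X-linked members, paralogs, stalk proteins, Rpsa, Rps27a, Rps6, Rpl5, Rpl11, the 5 highest and 5 lowest of each subunit, members with a fold over 1.5, with probe sets called in the opposite direction or with a mean below the median of all probe sets, Fau, Rack1, Rpl22l1, the 2 highest and 2 lowest called genes of each other list, and Alkbh1; a further gene of this rule is not reported here. Others, such as Rpl3, Rps26, Pgk1, Slc25a5, Hspb1, Cox5a, Mt1, Mt2, Gas5, Eif3f, Eif4b, Dkc1, Gnl3l, Utp6, Senp3, Eef1a1, Eef2, Pabpc1 and Lgals1, were picked with their values in view. In the naming rule, paralogs are those among the members. Rpl39l, which is not a member, was named after its value was seen. The members and lists were chosen with earlier results of these data known. Computations used limma 3.58.1 (R 4.3.3) and, in Python 3.11.15, NumPy 2.4.6, pandas 2.3.3 and matplotlib 3.10.9.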

Additional observations from a re-analysis of the deposited data

How the results depend on the processing

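No paired analysis was possible because the tables carry no values of single arrays, and for the same reason no array could be left out in turn. The count of large subunit genes called higher, 2 in the main setting, was 0 with a linear fold over 1.5, 1 of 30 genes with probe sets whose names do not end in _x_at or _s_at, and 0 of 29 without the X-linked members. The count of small subunit genes called higher, 0 in the main setting, was 1 with a trended prior variance, 2 in Student's test and 1 at an unadjusted p under 0.05. The counts of genes called lower were 0 in both subunits under every setting run. Of 50 such values of counts and medians, 44 kept their side of the threshold or moved by less than 0.086 on the log2 scale. Of the 50, 3 fell below the main count and 3 rose above it. The limit of 0.086 is the median moderated standard deviation of a member, which includes the prior variance and is not the spread between arrays. It is far larger than the medians, so large subunit medians of −0.0012 and −0.0029, below 0, still counted as kept. Some values could not change. A limit at the median brightness left all 31 and 25 genes in place, and adding a fold threshold cannot raise a count of 0. The medians ran from −0.0029 to 0.022 in the large subunit and from 0.0032 to 0.025 in the small subunit, and 0 values of a called gene turned in direction. Choosing the brightest probe set not contradicted by its identifier, a setting chosen after seeing the data, changed no count. Among single members, Rpl10 lost its call with another probe set, at 0.23 (adjusted p = 0.0785 in limma), while Rps4x and Rps27l gained one as given with the results. The bright end of the array's range and the 3 arrays per genotype limit how small a difference can be seen.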

Other observations

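Some probe sets that carry a ribosomal protein symbol in the deposited annotation have the gene identifier of another gene, 16 of 162. They held the largest values found under a member's symbol. A probe set listed as Rplp1, 1437103_at, has the identifier of Igf2bp2, an mRNA-binding protein gene, and a log2 difference of 1.30 (adjusted p = 0.00115, limma's moderated test). A set listed as Rpl27a, 1435754_at, has that of Zyg11b and was at 0.62 (adjusted p = 0.0241, same test). Another listed as Rpl27a, 1434467_at, has that of Atcay and was at −0.69 (adjusted p = 0.00546, same test), with a mean log2 value of 3.94. Counted by symbol alone, 4 member probe sets were called higher and 1 lower, and without the 16 the counts were 2 and 0. The brightest set was affected for Rpl24, which has no other set under that symbol, and for Rps15. Sets of Rpl24 under another symbol or none were not searched for.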
